A study of Mus musculus with 18 samples.

Results

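Transcripts of 9 genes of lipid efflux and storage were followed in the retinal pigment epithelium (RPE) of mice, a pigmented sheet of cells that supports the photoreceptors. The genes were Apoe, Abca1, Abcg1, Scarb1, Nr1h2, Nr1h3, Lpl, Plin2 and Abca4, chosen by name from the 21859 rows of the table of raw counts per gene. Each matched 1 row, and all 9 were among the 15944 genes that passed the filter on low counts. RNA was sequenced in bulk in 18 libraries of 4 groups. Young (7 libraries) and Old (4 libraries) are RPE from young and aged mice with no vector named. Old-Control (3 libraries) is RPE of aged mice given AAV2-tTA, an adeno-associated virus vector that carries the tetracycline-controlled transactivator tTA. Old-OSK (4 libraries) is RPE of aged mice treated with AAV2-tTA plus TRE-OSK, in which a promoter driven by tTA carries the transcription factors Oct4, Sox2 and Klf4. Old-Control and Old-OSK thus share the tTA vector. Ages in months, strain, vector dose, the time after treatment and the promoter of tTA are not given in the sources used here. Nothing in the labels says whether the libraries of a group came from separate animals, so p-values measure the spread between these libraries.

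RPE cells take up shed photoreceptor outer segments every day and must pass on, store or burn the lipid they bring. The liver X receptors Nr1h2 and Nr1h3 sense oxysterols and switch on the exporters Abca1 and Abcg1, which load cholesterol and phospholipid onto acceptors such as apolipoprotein E. Scarb1 moves sterol between cells and high-density lipoprotein, Lpl splits lipoprotein triglyceride, Plin2 coats lipid droplets, and Abca4 moves retinoid-lipid adducts across the membranes of photoreceptor discs and RPE endolysosomes.

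Library totals lay between 18104828 and 32348136 counts, and the lowest count of any of the 9 genes in any library was 63 (Abcg1 in Young replicate 5). All levels below are CPM (read counts scaled to a common library total), with TMM as the correction for library composition. The 6 libraries with a letter M in their names (3 Young, replicates 5 to 7, 2 Old-Control, replicates 2 and 3, and Old-OSK replicate 4) held 4040 to 5493 counts of 4 Y-linked genes. The remaining 12, with every Old library among them, held 0 to 93. Defining RPE markers were present in every library, with a summed level of 13 genes between 15448 and 62220 CPM. Other cells were present too. The summed level of 13 rod markers was 461 to 3508 CPM in Young, 2482 to 8412 in Old, 1945 to 20855 in Old-Control and 3276 to 17414 in Old-OSK, and that of 17 macrophage and microglia markers was 530 to 706, 845 to 1363, 1011 to 1234 and 960 to 1153 CPM. No defining rod or macrophage marker was at 0 in any library. Old replicate 4 (26224 CPM) and Old-Control replicate 2 (20044 CPM) had the lowest RPE sums of their groups, and Old-Control replicate 2 had the highest rod sum of all. In bulk RNA, fewer cells of a type and less RNA per cell cannot be told apart.

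The promoter sequences below are shown because, among these genes, Abca1 and Plin2 hold the closest matches to the DR4 and DR1 elements of nuclear receptors and Abca4 holds the core of OTX and CRX proteins. They come from RefSeq (GRCm38.p6), cover the 250 bases before the annotated start, and are given 5′ to 3′ on the strand of the gene with the match in capitals. Promoters of 6 of the 9 genes were in the table, and Abcg1, Scarb1 and Lpl had no entry.
Abca1 (chr4:53159896-53160145, minus strand): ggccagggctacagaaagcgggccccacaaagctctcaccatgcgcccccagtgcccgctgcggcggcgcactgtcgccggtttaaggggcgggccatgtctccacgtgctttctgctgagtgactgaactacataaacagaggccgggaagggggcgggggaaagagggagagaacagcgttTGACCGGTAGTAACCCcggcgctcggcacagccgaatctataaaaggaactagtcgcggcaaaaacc
Plin2 (chr4:86670060-86670309, minus strand): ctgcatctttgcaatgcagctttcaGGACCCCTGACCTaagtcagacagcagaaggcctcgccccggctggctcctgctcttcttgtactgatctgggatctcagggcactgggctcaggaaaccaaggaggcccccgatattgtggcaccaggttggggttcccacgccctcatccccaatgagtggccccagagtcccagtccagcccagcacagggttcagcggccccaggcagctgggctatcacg
Abca4 (chr3:122044210-122044459, plus strand): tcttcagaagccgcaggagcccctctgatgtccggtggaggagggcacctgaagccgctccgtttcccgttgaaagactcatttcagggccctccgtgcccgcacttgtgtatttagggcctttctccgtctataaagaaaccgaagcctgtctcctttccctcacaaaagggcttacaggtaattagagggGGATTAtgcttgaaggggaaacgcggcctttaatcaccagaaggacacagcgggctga

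The capitals in Abca1 mark the best match to the DR4 element of liver X receptors, searched on both strands as 2 half-sites AGGTCA with 4 bases between them. It lies on the opposite strand, 67 to 52 bases before the start, with 3 mismatches, and 18.5% of all 32851 promoter windows of the same length hold a match as close. Those in Plin2 mark the best match to a DR1 element, the kind bound by PPAR receptors, searched as the same half-sites with 1 base between them. It has 2 mismatches, 225 to 213 bases before the start, and 3.24% of windows hold one as close. DR1 and DR4 share their half-sites, so their matches can overlap. Those in Abca4 mark TAATCC, a core bound by OTX and CRX proteins, on the opposite strand 58 to 53 bases before the start, and 6.25% of windows hold it. It was also found in 1 of the 3 Apoe windows and 1 of the 2 Nr1h3 windows. A match is a description of letters and shows no binding.

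Gene positions are those of GENCODE M21 on GRCm38, the mouse build among those in the submitters' processing notes. Per kilobase of annotated exon, a scale on which genes can be compared, Apoe (chromosome 7, 19696109 to 19699188) was far above the other members, at 4345 CPM per kilobase in Young. Abca4 (chromosome 3, 122044443 to 122180123) followed at 86.9, Plin2 (chromosome 4, 86648386 to 86670060) at 41.0, Nr1h2 (chromosome 7, 44549616 to 44553951) at 23.4 and Scarb1 (chromosome 5, 125277087 to 125341094) at 20.6. Abca1 (chromosome 4, 53030787 to 53159895) stood at 14.1, Lpl (chromosome 8, 68880491 to 68907448) at 7.20, Nr1h3 (chromosome 2, 91184061 to 91202834) at 3.97 and Abcg1 (chromosome 17, 31057675 to 31117988) at 1.08. Of the receptor pair, Nr1h2 was the more abundant form on this scale in every group, with group means of 22.9 to 26.0 CPM per kilobase against 3.97 to 5.28 for Nr1h3. Of the exporters, Abca1 was above Abcg1 in every group, by 14.1 against 1.08 CPM per kilobase in Young and 13.03 against 4.36 in Old-OSK. The exons of 8 members overlapped no exon of another gene in this annotation, and those of Nr1h3 shared 34 bases with the noncoding Gm13783.

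**Figure D1:**
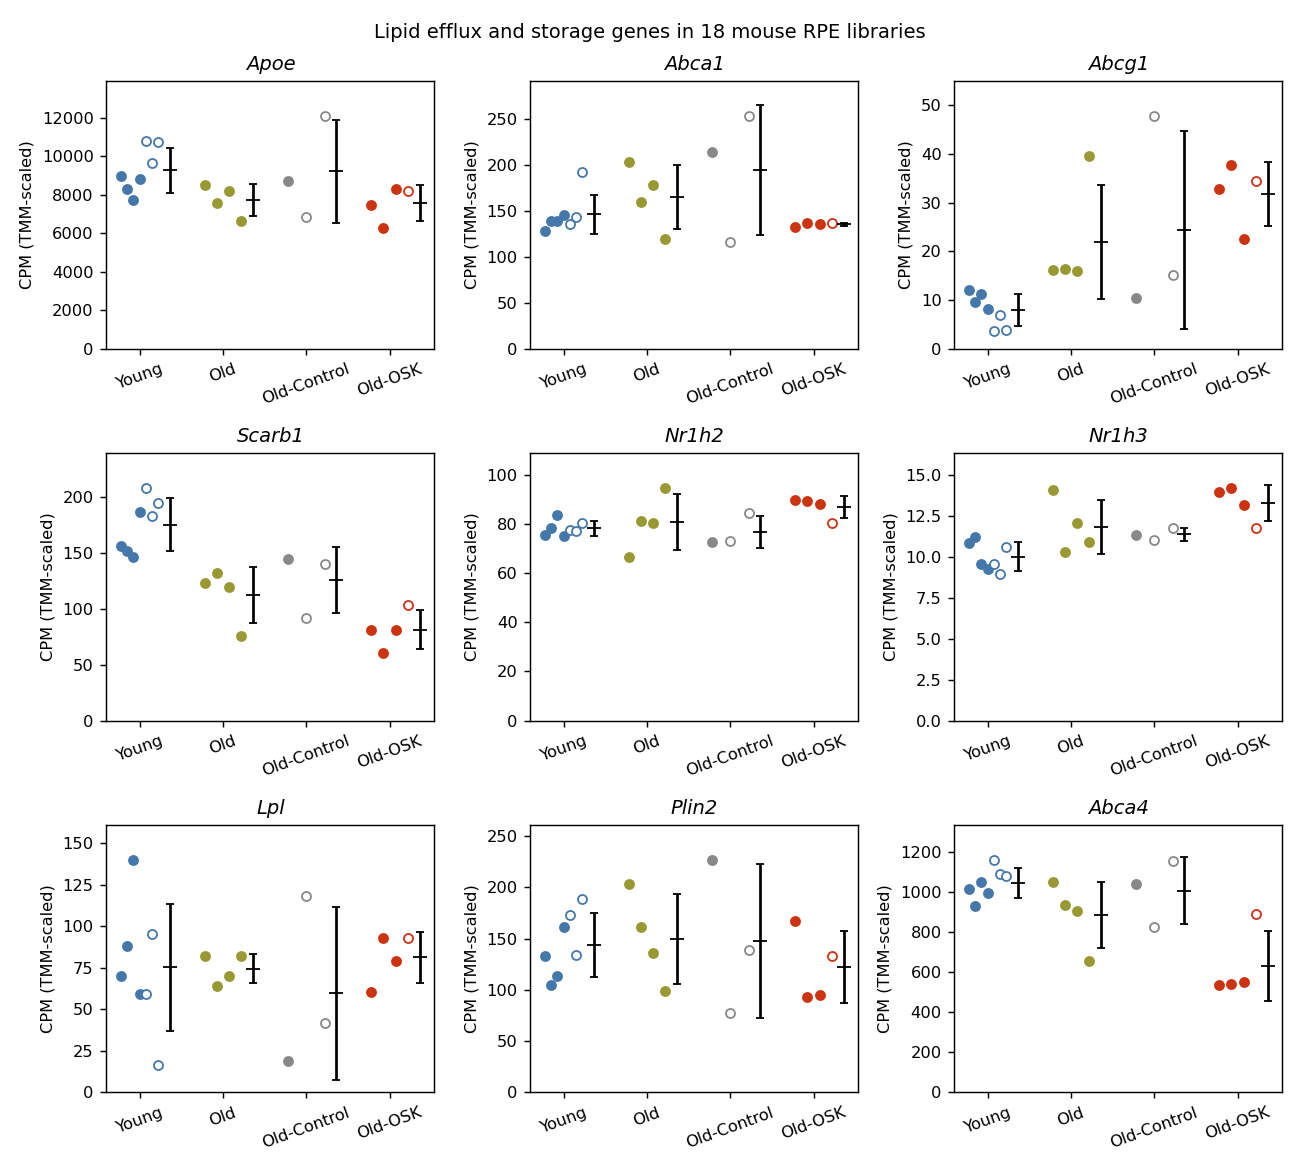
Level of each of the 9 genes (CPM after TMM, vertical axis) in the 4 groups. Each point is 1 library, open points are libraries with M in their names, and the black dash and bar give the mean ± SD. By group mean Abcg1 is lowest and Scarb1 highest in Young. The 4 Old-OSK values of Abca1 nearly coincide, and 3 of the 4 Old-OSK values of Abca4 lie below all other libraries.

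The comparison of Old with Young asks what differs with age in RPE without a vector. Some Young libraries have M in their names and no Old library does, so age and M are partly mixed. Of the 9 genes, the exporter Abcg1 rose and the receptor Scarb1 fell, and the other 7 did not pass the test (edgeR quasi-likelihood, adjusted p under 0.05). Over all tested genes 9.56% were called, 5.40% higher and 4.16% lower. The median log2 fold change was 0.04 over the 9 genes and -0.004 over all genes tested.

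Abcg1, which exports cholesterol to lipoprotein particles, stood at 3.65 to 12.0 CPM in Young (median 8.08) and at 16.1, 16.4, 16.0 and 39.5 CPM in Old replicates 1 to 4. All Old libraries lay above all Young libraries, Old replicate 4 furthest. The mean went from 7.91 ± 3.31 CPM (SD, n = 7) to 21.98 ± 11.7 CPM (n = 4), or 1.47 on the log2 scale (SE 0.40, adjusted p = 0.0345 by edgeR). The groups did not overlap, as was so for 9.30% of all tested genes (3.69% higher, 5.61% lower). Leaving out Old replicate 4 gave 1.02 (adjusted p = 0.207, edgeR). The Young libraries with M had 3.65 to 6.996 CPM and those without had 8.08 to 12.0 CPM. Within the libraries without M the log2 fold change was 1.11 (SE 0.31, adjusted p = 0.0811), and with M as a covariate it was 1.40 (adjusted p = 0.0796).

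Scarb1 (scavenger receptor class B type 1) showed the opposite pattern. It stood at 146 to 208 CPM in Young (median 183) and at 122, 132, 119 and 75.7 CPM in Old replicates 1 to 4. All Old libraries lay below all Young libraries, Old replicate 4 furthest. The mean went from 175 ± 23.8 CPM to 112 ± 25.0 CPM, or -0.64 on the log2 scale (SE 0.17, adjusted p = 0.0343 by edgeR). Without Old replicate 4 it was -0.49 (adjusted p = 0.149), within the libraries without M -0.51 (adjusted p = 0.12) and with M as a covariate -0.55 (adjusted p = 0.0931). When each of the 11 libraries was dropped in turn, Abcg1 passed 5 times and Scarb1 5 times. Neither held without Young replicate 4, 5, 6 or 7 or without Old replicate 4, and 1 of the 2 was lost without Old replicate 2 and without Old replicate 3.

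Neither of the sensors passed the test with age. Nr1h2 stood at 75.0 to 83.8 CPM in Young and at 66.8, 81.3, 80.3 and 94.8 CPM in Old (log2 difference 0.04, SE 0.08, adjusted p = 0.75 by edgeR). Nr1h3 stood at 8.95 to 11.2 CPM in Young and at 14.1, 10.3, 12.1 and 10.9 CPM in Old (0.24, SE 0.11, adjusted p = 0.139). The Old libraries overlapped the Young libraries for both genes.

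Apoe, the main apolipoprotein of the retina, stood at 7741 to 10788 CPM in Young and at 8490, 7571, 8211 and 6659 CPM in Old (log2 difference -0.26, SE 0.18, adjusted p = 0.335 by edgeR). Abca1 stood at 128 to 193 CPM in Young and at 202, 159, 178 and 120 CPM in Old (0.17, SE 0.17, adjusted p = 0.539). The groups overlapped for both genes. Whether the age difference of Abca1 differed from that of Abcg1 was not tested.

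Of the remaining genes, Lpl stood at 16.2 to 140 CPM in Young and at 82.1, 64.1, 70.4 and 82.0 CPM in Old (log2 difference -0.02, SE 0.44, adjusted p = 0.986 by edgeR). Its Young values spread with a CV of 50.8%, the widest of the 9 genes in that group, against 11.9% in Old. Plin2 stood at 105 to 188 CPM in Young and at 203, 161, 136 and 99.2 CPM in Old (0.06, SE 0.26, adjusted p = 0.908). Abca4 stood at 928 to 1161 CPM in Young and at 1048, 933, 905 and 657 CPM in Old (-0.24, SE 0.16, adjusted p = 0.326). Old replicate 4 was the lowest Old library for Plin2 and for Abca4.

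Markers of other cells were set beside these values. Of 17 macrophage and microglia markers 13 rose and 0 fell. The exceptions include Csf1r (494 ± 82.6 CPM in Young, 391 ± 92.9 CPM in Old), which makes up most of the marker sum in Young. Without it the sum was 86.2 to 129 CPM in Young and 403 to 913 CPM in Old. Of 13 rod markers 0 were called, all with positive log2 fold changes (median 1.36). Of 13 RPE markers 0 rose and 2 fell, 12 had negative log2 fold changes (median -0.39), and of 7 stromal markers 2 fell. Of 7 endothelial markers 0 were called, all with positive log2 fold changes (median 0.75). Macrophages also express several of the members, among them Abcg1 (called) and Nr1h3, Apoe, Abca1, Lpl and Plin2 (not called). The part of any of these cell types in the results was not tested.

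Around the 9 genes, 8 of 88 tested members of 6 further lists passed with age (9.09%, near the 9.56% of all tested genes). Of 15 partners and other targets of the liver X receptors, 1 rose and 1 fell. Mylip, a ligase that removes lipoprotein receptors, had 54.9 ± 5.16 CPM in Young against 68.6 ± 3.18 CPM for Old (log2 difference 0.32, adjusted p = 0.0399, edgeR). Scd2, a fatty acid desaturase, went from 1023 ± 168 to 695 ± 36.8 CPM (-0.56, adjusted p = 0.026). Of 16 tested lipoprotein and remodelling genes 1 fell, the receptor Vldlr (-0.52, adjusted p = 0.0353), and 0 of 16 other lipid transporters were called (4 at an unadjusted p under 0.05, a threshold that 29% of all tested genes met). Of 17 tested droplet genes 1 rose, Cidea (1.17, adjusted p = 0.04), at 2.43 ± 0.948 CPM in Old. Of 13 genes of neutral lipid synthesis 1 rose, the triglyceride synthase Dgat2, from 19.3 ± 1.06 to 30.7 ± 10.3 CPM (0.68, adjusted p = 0.0276). Of 11 tested fatty acid and scavenger receptor genes 3 rose. Cd36 (1.25, adjusted p = 0.00652) and Fabp4 (1.73, adjusted p = 0.0342) had the lowest p, and the third was Fabp5 (2.09, adjusted p = 0.0383), named after its value was seen. Cd36 and Fabp4 were at most 10.8 and 5.96 CPM in any library, and all 3 are also expressed by macrophages or endothelium. When each library was left out in turn, Cd36 held in 11 of 11 fits, Dgat2 in 9, Scd2 in 6, Cidea and Fabp4 in 4, and Mylip and Vldlr in 3.

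**Figure D2:**
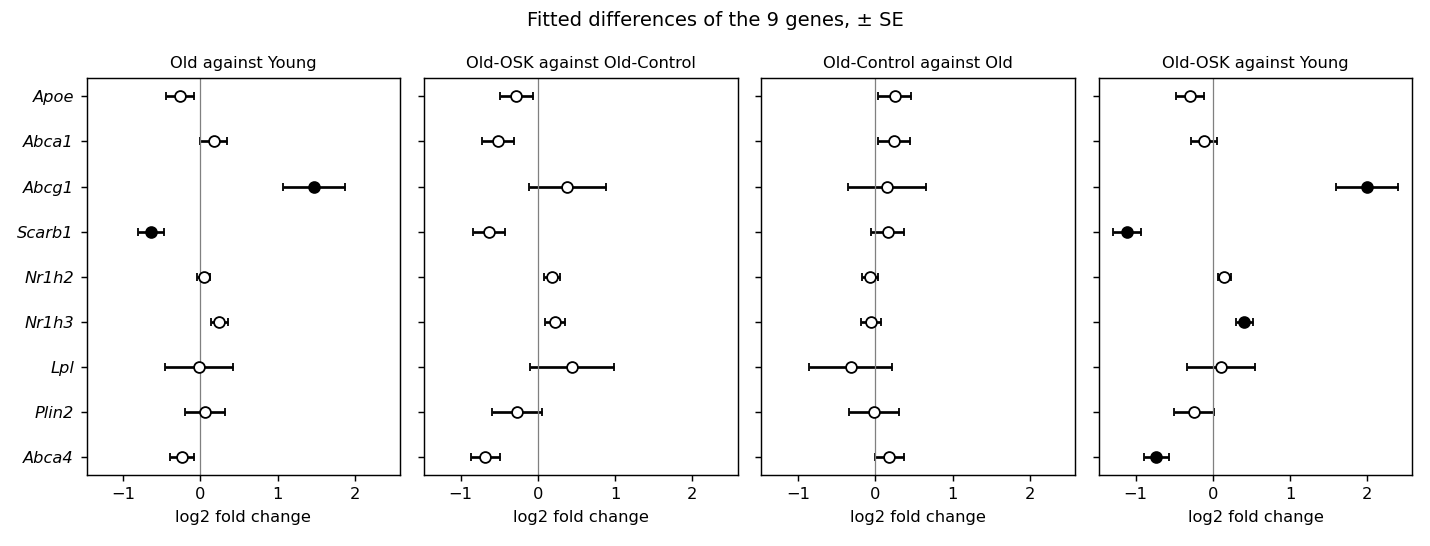
Fitted log2 fold changes ± SE (horizontal axis) of the 9 genes in the 4 comparisons. Filled points passed at an adjusted p under 0.05. Abcg1 and Scarb1 are filled in Old against Young, no point is filled in either comparison with Old-Control, and Abcg1, Scarb1, Nr1h3 and Abca4 are filled in Old-OSK against Young.

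The comparison of Old-OSK with Old-Control asks what differs once OSK is added to the tTA vector. A larger share of Old-Control than of Old-OSK libraries has M, so OSK and M are partly mixed. Of the 9 genes, 0 passed (edgeR), 3 had an unadjusted p under 0.05 (Abca4, Scarb1 and Abca1, each with a negative log2 fold change), and DESeq2 called 1, Abca4. Over all tested genes 26.3% had an unadjusted p under 0.05, so 3 of 9 is near the background. DESeq2, with its own filter on genes, called 1648, a number equal to 10.3% of the genes tested with edgeR. Over all genes edgeR called 0.728% (116 genes). Blocking on the replicate number, which also drops Old-OSK replicate 4, gave 461 calls over all genes and 1 among the members, Scarb1. The same 6 libraries without the block gave 990 calls and 1 member, Abca4. Median-ratio scaling moved the split over all genes from 65 higher and 51 lower to 64 higher and 29 lower. The median log2 fold change was -0.27 over the 9 genes and -0.03 over all genes.

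Abca4 stood at 1039, 825 and 1153 CPM in Old-Control replicates 1 to 3 and at 537, 540, 553 and 889 CPM in Old-OSK replicates 1 to 4. The first 3 Old-OSK libraries lay below every other library of the series, and the 1 with M lay within the Old-Control range. The mean was 1005 ± 167 CPM (SD, n = 3) in Old-Control and 630 ± 173 CPM (n = 4) in Old-OSK, or -0.68 on the log2 scale (SE 0.19, adjusted p = 0.0723 by edgeR). DESeq2 gave -0.67 (adjusted p = 0.0226). With edgeR, M as a covariate gave -0.60 (adjusted p = 0.151) and the replicate block -0.88 (adjusted p = 0.0705). These 2 groups fitted alone gave -0.68 (adjusted p = 0.206, edgeR). Leaving out Old-OSK replicate 4 gave -0.93 (adjusted p = 0.0102, edgeR). Leaving out Old-Control replicate 2 gave -0.82 (adjusted p = 0.0173). Over all genes, these fits called 1738 genes without Old-OSK replicate 4 and 2881 without Old-Control replicate 2, against 116 with all libraries. The adjusted p spanned 0.0102 to 0.332 when each of the 7 libraries was dropped in turn.

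Photoreceptors express Abca4 as well, so its level was set beside the marker sums. Old-Control replicate 2 and Old-OSK replicate 4 had the highest rod sums (20855 and 17414 CPM) and had 825 and 889 CPM of Abca4. The other 3 Old-OSK libraries had rod sums of 3276 to 8630 CPM, above or within the Young range, with 537 to 553 CPM of Abca4. RPE sums were 15448 to 28803 CPM in Old-OSK, and 58985, 20044 and 52041 CPM in Old-Control replicates 1 to 3. None of the RPE or rod markers was called in this comparison. Of 13 RPE markers 9 had an unadjusted p under 0.05, a threshold that 26.3% of all tested genes met. The RPE markers went both ways, with 9 negative and 4 positive log2 fold changes (median -0.76, range -1.39 to 0.73). The part of either cell type in the level of Abca4 was not tested. With both rod-rich libraries left out, a fit chosen after seeing the data, the log2 fold change of Abca4 was -1.06 (SE 0.16, adjusted p = 0.00426, edgeR). These were the lowest Old-Control and the highest Old-OSK library for Abca4, so leaving them out widens the difference in itself. That fit called 3856 genes over all, against 116 with all libraries.

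**Figure D3:**
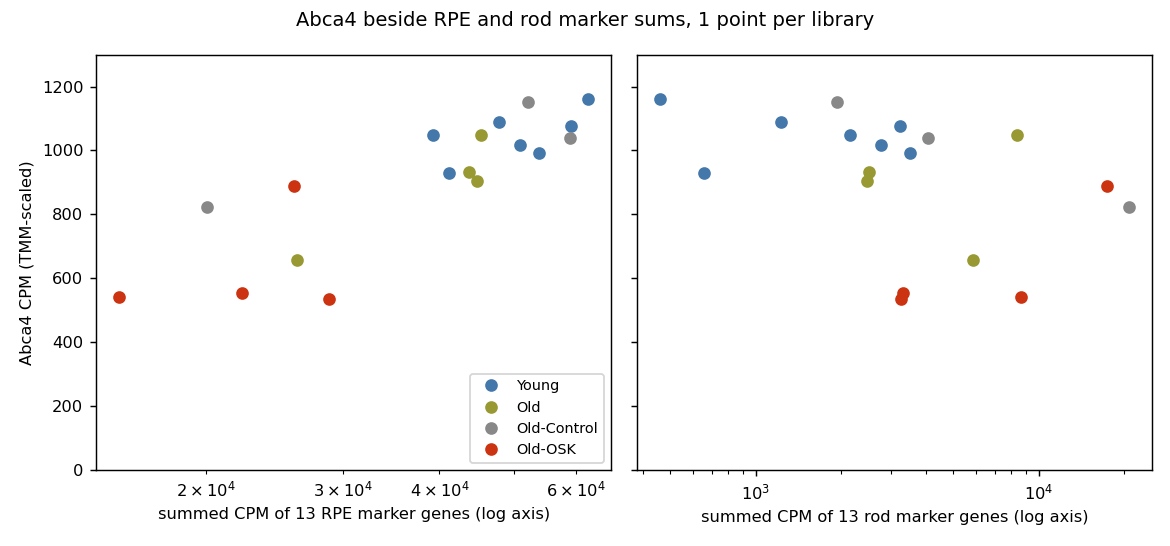
Abca4 level (CPM, vertical axis) against the summed level of 13 RPE markers (left) and 13 rod markers (right), both on log axes, with 1 point per library coloured by group. The 3 lowest points, at 537 to 553 CPM, are Old-OSK libraries with RPE sums of at most 28803 CPM, and Young libraries with rod sums of 461 to 3508 CPM hold 928 to 1161 CPM of Abca4.

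Scarb1 stood at 145, 91.7 and 140 CPM in Old-Control and at 81.1, 60.2, 80.7 and 103 CPM in Old-OSK. Old-Control replicate 2 lay within the Old-OSK range, and the other 2 control libraries lay above it. The mean went from 125.5 ± 29.3 CPM in Old-Control to 81.2 ± 17.5 CPM in Old-OSK, or -0.63 on the log2 scale (SE 0.21, adjusted p = 0.0945 by edgeR). With the replicate number as a block it was -0.75 (SE 0.12, adjusted p = 0.0499). In the same 6 libraries without the block it was -0.76 (adjusted p = 0.0934), and with M as a covariate -0.57 (adjusted p = 0.192). Leaving out 1 library at a time gave -0.83 to -0.51, with an adjusted p of 0.0202 without Old-Control replicate 2, 0.0346 without Old-OSK replicate 4 and 0.17 to 0.374 without each of the other 5.

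Abca1 stood at 214, 116 and 253 CPM in Old-Control and at 132, 136, 135 and 137 CPM in Old-OSK. The Old-OSK libraries had a CV of 1.47% and the Old-Control libraries 36.4%, with Old-Control replicate 2 below and the other 2 above all Old-OSK libraries. The log2 fold change was -0.52 (SE 0.21, adjusted p = 0.135, edgeR). It was -0.82 (adjusted p = 0.00823) without Old-Control replicate 2 and -0.29 (adjusted p = 0.469) without Old-Control replicate 3.

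Abcg1 had the opposite sign and did not pass. It stood at 10.4, 47.8 and 15.1 CPM in Old-Control and at 32.7, 37.8, 22.5 and 34.4 CPM in Old-OSK, or 0.38 on the log2 scale (SE 0.50, adjusted p = 0.693 by edgeR). Old-Control replicate 2 was the highest library of the series for Abcg1, and the other 2 control libraries lay below every Old-OSK library. Leaving out Old-Control replicate 2 gave 1.29 (adjusted p = 0.0726), leaving out replicate 1 gave 0.02 (adjusted p = 0.991) and leaving out replicate 3 gave 0.13 (adjusted p = 0.922).

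Neither receptor passed after OSK. Nr1h2 stood at 72.7, 73.3 and 84.4 CPM in Old-Control and at 90.0, 89.3, 88.3 and 80.6 CPM in Old-OSK (log2 difference 0.18, SE 0.10, adjusted p = 0.246 by edgeR). Nr1h3 stood at 11.3, 11.03 and 11.8 CPM in Old-Control and at 13.9, 14.2, 13.2 and 11.75 CPM in Old-OSK (0.22, SE 0.13, adjusted p = 0.294). For each, the Old-OSK library with M lay within the Old-Control range and the other 3 lay above it.

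Apoe, Lpl and Plin2 overlapped between the vector groups. Apoe stood at 8729, 6829 and 12104 CPM in Old-Control and at 7483, 6274, 8320 and 8215 CPM in Old-OSK (log2 difference -0.28, SE 0.21, adjusted p = 0.427 by edgeR). Lpl stood at 19.1, 119 and 41.9 CPM in Old-Control and at 60.7, 93.0, 79.0 and 92.9 CPM in Old-OSK (0.44, SE 0.54, adjusted p = 0.668). Plin2 stood at 227, 77.2 and 138 CPM in Old-Control and at 167, 93.4, 94.8 and 133 CPM in Old-OSK (-0.27, SE 0.32, adjusted p = 0.649). All 3 values moved with single control libraries, and none passed. Lpl was 1.39 without Old-Control replicate 2, 0.02 without replicate 1 and 0.24 without replicate 3. Apoe was -0.49 without replicate 2 and -0.04 without replicate 3. Plin2 was -0.60 without replicate 2 and 0.18 without replicate 1. Old-Control replicate 2 was the highest control library for Lpl and Abcg1 and the lowest for Apoe, Abca1, Scarb1, Plin2, Nr1h3 and Abca4.

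In the further lists, 2 of 88 tested genes passed after OSK (2.27%, beside 0.728% of all tested genes). They were 1 of 16 lipoprotein and remodelling genes and 1 of 11 fatty acid and scavenger receptor genes. Vldlr, a receptor for triglyceride-rich lipoproteins, went from 191 ± 23.3 CPM in Old-Control to 109 ± 18.7 CPM in Old-OSK (log2 difference -0.81, SE 0.17, adjusted p = 0.0342 by edgeR), with no overlap. Scarb2, a lysosomal membrane protein related to Scarb1, went from 123 ± 2.68 to 170 ± 17.4 CPM (0.46, SE 0.08, adjusted p = 0.0159), also with no overlap, as was so for 12.4% of all tested genes (6.55% higher, 5.84% lower). With the replicate block Scarb2 did not pass (0.51, adjusted p = 0.0792), and when each of 7 libraries was dropped in turn Scarb2 passed 3 times and Vldlr 2 times. The number called was 0 of 15 liver X receptor partners and targets, 0 of 16 other transporters, 0 of 17 droplet genes and 0 of 13 neutral lipid synthesis genes. At an unadjusted p under 0.05 these lists had 3, 3, 5 and 7 genes, against 26.3% of all tested genes.

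**Figure D4:**
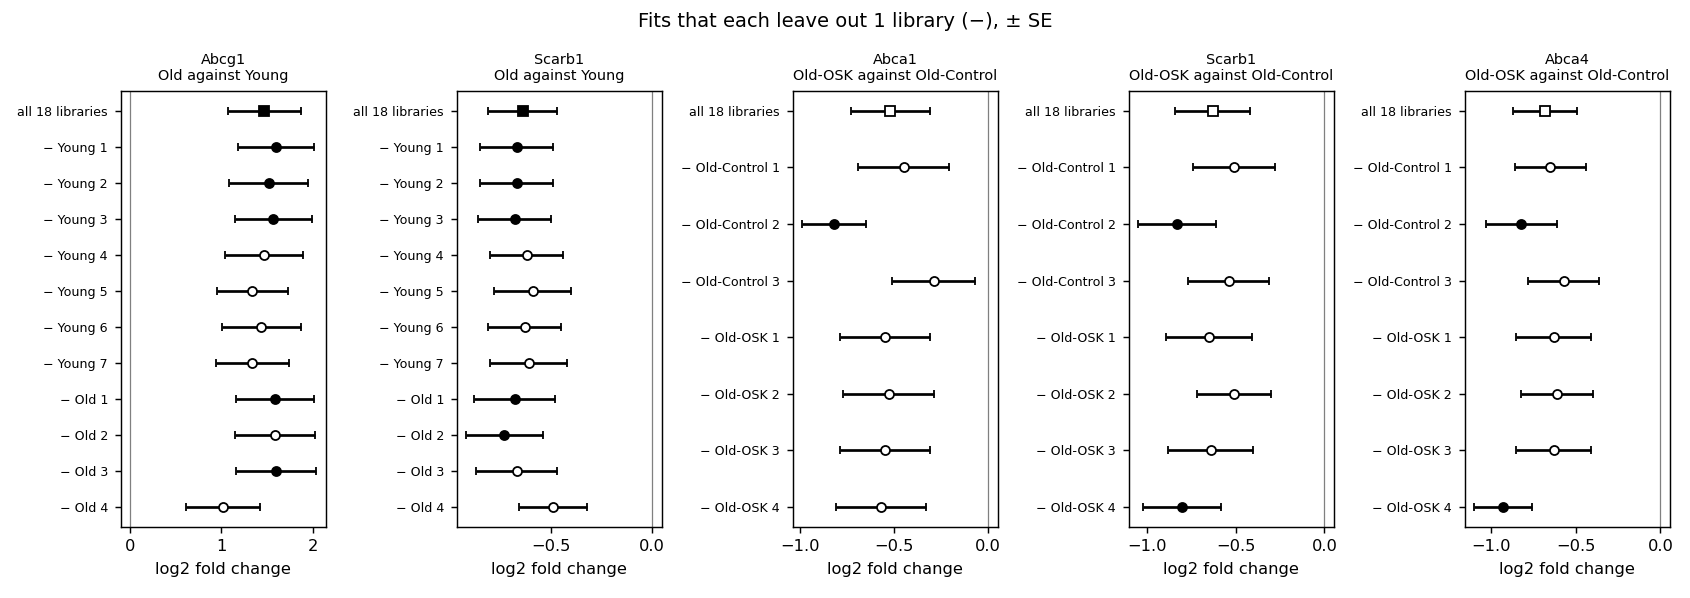
Log2 fold change ± SE (horizontal axis) of the named gene and comparison in each panel, with all 18 libraries (square) and with the named library left out (circles). Filled symbols passed at an edgeR adjusted p under 0.05. In Old against Young the estimates move most without Old replicate 4, and after OSK Abca1, Scarb1 and Abca4 are filled without Old-Control replicate 2.

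The comparison of Old-Control with Old asks what differs with the tTA vector. Old-Control replicates 2 and 3 have M in their names and no Old library does, so vector and M are partly mixed. Of the 9 genes 0 were called and 0 had an unadjusted p under 0.05 (edgeR). DESeq2 called 0, and 0 were called with M as a covariate. Over all genes 0% were called and 3.74% had an unadjusted p under 0.05. The log2 fold changes of the 9 genes lay between -0.32 (Lpl, SE 0.54) and 0.25 (Apoe, SE 0.21), with a median of 0.15 against 0.04 over all genes. All 9 genes overlapped between the groups, while 3.18% of all tested genes lay apart (2.25% higher, 0.928% lower). The value of Abcg1 was 0.15 (SE 0.50) and turned to -0.77 without Old-Control replicate 2, and that of Plin2 went from -0.02 to 0.28.

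Old-OSK was also compared with Young. These groups differ in age, in the tTA vector and in OSK together, so a difference cannot be assigned to any of them alone. This comparison shares its Young libraries with the age comparison, so their values are not independent. Of the 9 genes 2 rose (Abcg1 and Nr1h3) and 2 fell (Scarb1 and Abca4), which is 4 of 9 against 46.4% of all tested genes (25.1% higher, 21.4% lower), a share near the background. The median log2 fold change was -0.11 over the 9 genes and 0.06 over all.

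Abcg1 averaged 31.8 ± 6.58 CPM in Old-OSK (SD, n = 4) against 7.91 ± 3.31 CPM in Young (n = 7), or 2.00 on the log2 scale (SE 0.40, adjusted p = 0.00109 by edgeR). Its lowest Old-OSK library (22.5 CPM) was above the highest Young library (12.0 CPM). Scarb1 stood at 81.2 ± 17.5 against 175 ± 23.8 CPM (-1.11, SE 0.18, adjusted p = 0.000244), the member with the lowest p. Its highest Old-OSK library (103 CPM) was below the lowest Young library (146 CPM). By group mean the order for Scarb1 was Young, Old-Control, Old and Old-OSK. Old and Old-Control did not differ beyond their spread.

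Nr1h3 averaged 13.3 ± 1.10 CPM in Old-OSK against 9.99 ± 0.886 CPM in Young (log2 difference 0.41, SE 0.11, adjusted p = 0.00519 by edgeR), with no overlap. With the replicate number as a block it was 0.36 (adjusted p = 0.0557). Nr1h2 was not called (0.15, SE 0.08, adjusted p = 0.125). Abca4 stood at 630 ± 173 against 1045 ± 74.7 CPM (-0.73, SE 0.16, adjusted p = 0.0018), also with no overlap. Groups were apart for 28.2% of all tested genes (12.6% higher, 15.6% lower). Apoe (-0.29, adjusted p = 0.183), Abca1 (-0.11, adjusted p = 0.624), Lpl (0.11, adjusted p = 0.862) and Plin2 (-0.24, adjusted p = 0.492) were not called. Dropping any 1 of the 11 libraries, or all libraries with M, ended none of these 4 calls.

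Markers moved in this comparison as well. Of 13 rod markers 12 rose and 0 fell, of 13 RPE markers 0 rose and 11 fell, and of 17 macrophage and microglia markers 15 rose and 1 fell (Csf1r). Abca4 is expressed in both rods and RPE. The part of these cell types in the 4 calls was not tested.

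In the further lists 47 of 88 tested genes passed in Old-OSK against Young (53.4%, beside 46.4% of all tested genes). Among liver X receptor partners and targets 3 of 15 rose and 4 fell. Arl4c (1.17) and Mylip (0.31) rose, and the coactivator Ncoa1 (-0.96) and the corepressor Ncor1 (-0.27) fell (adjusted p by edgeR, in that order, = 0.0154, 0.0113, 0.00107 and 0.00491). Of 16 lipoprotein and remodelling genes 2 rose and 6 fell. Apoc1, a small apolipoprotein of macrophages and liver, rose from 4.91 ± 1.21 to 20.6 ± 10.4 CPM (2.07, adjusted p = 0.000398) and the endothelial lipase Lipg by 2.23 (adjusted p = 0.028). The receptors Vldlr (-1.13, adjusted p = 5.13e-05) and Lrp1 (-1.04, adjusted p = 0.00211) fell.

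Of 16 other lipid transporters 2 rose and 6 fell. Abca7 (log2 fold change 0.46) and the lysosomal cholesterol exporter Npc1 (0.48) rose, and Abca5 (115.2 to 57.6 CPM) and Mfsd2a (-1.75), a carrier of docosahexaenoic acid, fell (adjusted p by edgeR, in that order, = 0.00132, 0.00699, 0.000355 and 0.000704). Mfsd2a averaged 55.0 ± 14.6 CPM in Young and 16.4 ± 4.47 CPM in Old-OSK. Of 17 droplet genes 2 rose and 5 fell. Cidea (1.33) and Plin4 (0.76) rose, and the acid lipase Lipa (-0.58) and the lipolysis coactivator Abhd5 (-0.78) fell (adjusted p = 0.00455, 0.00588, 0.00281 and 0.00743). Of 13 neutral lipid synthesis genes 2 rose and 7 fell. Dgat2 (0.94) and Agpat2 (0.55) rose, and Gpam (-1.24), which starts glycerolipid synthesis, and Acsl4 (-0.57) fell (adjusted p = 0.000615, 0.00575, 0.000668 and 0.00165). Of 11 fatty acid and scavenger receptor genes 6 rose and 2 fell. Scarb2 (0.46) and Fabp4 (2.61) rose, and Slc27a1 (-0.90), a fatty acid transporter, and Ppara (-0.73) fell (adjusted p = 0.000134, 0.000532, 0.000902 and 0.013). Leaving out each library in turn ended the call of Mylip, Arl4c and Ppara in 1 of 11 fits and that of Lipg in 2, and no call of the other genes named for this comparison.

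For each of the 9 genes the 3 most similar genes were sought over the 18 libraries, by Pearson r of log2 CPM among the 10233 genes whose log2 CPM averaged 3 or more. The points share library, depth and group, so r is a measure of likeness only. For Scarb1 they were Cisd2 (0.98), Maged1 (0.98) and Miga1 (0.97), for Abca4 Apbb1 (0.95), Man2a2 (0.95) and Slc25a23 (0.95), and for Abcg1 Pfkfb3 (0.96), Camk1d (0.95) and Mgarp (0.94). Lpl was most like Tnr (0.96), Prickle2 (0.96) and Tacr1 (0.95), and Apoe most like Tmem86a (0.93), Spr (0.91) and Timp2 (0.91). Nr1h2 was most like Scrib (0.91), Plin2 most like Chid1 (0.90), Nr1h3 most like Steap3 (0.88) and Abca1 most like Cryzl2 (0.84). No member was among the 3 most similar genes of another member. The ranking took the highest r only, so opposite patterns do not appear in it. Between members r ran from -0.92 (Abcg1 with Scarb1) to 0.89 (Scarb1 with Abca4).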

How the data were processed

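One table with raw gene counts of all 18 libraries was deposited by the authors. STAR 2.7.1a and featureCounts 1.6.2 are named in the submitters' processing notes, with mouse (GRCm38, mm10) and human (GRCh38, hg38) builds. The annotation and strand setting are not given in the sources used here. Per the labels' protocols, cDNA was amplified with SMART-Seq v4 and libraries were made with Nextera XT. The table holds no molecular identifiers, so counting error is a lower limit.

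The members and lists were chosen with earlier results of these data known. Columns were matched to libraries by title, with 0 left over. Genes with low counts were removed (edgeR 4.0.16, filterByExpr, at least 10 counts and 15 in total). Counts were then TMM-scaled and fitted with 4 group means by quasi-likelihood in R 4.3.3, with Benjamini-Hochberg adjustment over 15944 genes. The code was tested on simulated data. Named genes were the members, the 2 called genes of lowest p per direction, list and comparison, and the 3 most similar genes per member.

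Libraries of a group differed beyond sampling noise, with a chi-square per gene of at least 17.9. In Old-OSK and Old-Control, deviations of libraries with equal title numbers correlated across genes (r = 0.103, 0.421 and 0.339). These numbers served as pairs only in the alternative fits with a replicate block, and the main test used no pairs. The pairing is uncertain and rests on these correlations: no label gives a common animal or day, and library names carry different numbers. Old-OSK replicate 1 was most like Old-Control replicate 3, not replicate 1. Alternatives were median-ratio size factors, other filters, DESeq2 1.42.0, robust estimation, fits of 2 groups, M as a covariate, the replicate block and each library left out. Chosen after seeing the data were fits of libraries without M and fits without both rod-rich libraries.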

Additional observations from a re-analysis of the deposited data

Results flagged for a closer look

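A library was noted where its gap to the nearest of the others exceeded Dixon's 95% critical value on log2 CPM within its group. 27 combinations of gene and group with 4 or 7 libraries were examined, of which chance would flag about 5%, and 4 passed. Abca1 was at 192.5 CPM in Young replicate 7, against 128 to 146 CPM in the other Young libraries. Lpl was at 16.2 CPM in the same library, against 59.1 to 140 CPM in the others. Abcg1 was at 39.5 CPM in Old replicate 4, against 16.0 to 16.4 CPM in the other Old libraries. Abca4 was at 889 CPM in Old-OSK replicate 4, the Old-OSK library with M, against 537 to 553 CPM in the others.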

How the results depend on the processing

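Of the 9 genes, 2 were called in Old against Young, and 0 were called with M as a covariate, 0 with the replicate number as a block, 0 in the same paired libraries without the block, 0 in only the libraries without M, and 0 to 2 with each library left out. In Old-OSK against Old-Control 0 were called, against 1 with DESeq2, 1 with the replicate block, 1 in the same paired libraries without it (Abca4, -0.89, edgeR adjusted p = 0.0476), 3 with both rod-rich libraries left out and 0 to 3 with each library left out (3 without Old-Control replicate 2, 2 without Old-OSK replicate 4). In Old-Control against Old 0 were called under every setting run. In Old-OSK against Young 3 to 5 were called, and 4 in each fit without 1 library. Over all genes, 1524 were called in Old against Young, against 2452 with DESeq2, 600 with M as a covariate, 0 with the block, 191 in the same libraries without the block, 445 without the M libraries and 393 to 2140 with each library left out. For Old-OSK against Old-Control the 116 became 1648 with DESeq2, 58 with M as a covariate, 2 with these groups alone, 461 with the block, 990 in the same libraries without the block, 3856 without the rod-rich libraries and 13 to 2881 with each library left out. The cause was not tested. Median-ratio scaling shifted the median log2 fold change of all genes by at most 0.018 in size.

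Log2 fold changes that turned sign belonged to genes that were not called. Lpl in Old against Young was 0.01 with a mean count of at least 50 and 0.01 with these groups alone (-0.19 to 0.21 with each library left out). In Old-OSK against Young it was -0.10 with the replicate block, -0.15 in the same libraries without the block, -0.21 without the M libraries and -0.00 without the rod-rich libraries (-0.09 to 0.33). In Old-Control against Old, Nr1h3 was 0.01 with M as a covariate, Scarb1 -0.03 with the block, Nr1h2 0.00 with and 0.00 without the block, and without the rod-rich libraries Abcg1 was -0.77 and Plin2 0.28. With each library left out, that comparison gave -0.77 to 0.60 for Abcg1, -0.48 to 0.28 for Plin2, -1.29 to 0.10 for Lpl, -0.12 to 0.04 for Nr1h3 and -0.16 to 0.01 for Nr1h2. Old against Young gave -0.12 to 0.21 for Plin2 and -0.04 to 0.13 for Nr1h2, and Old-OSK against Old-Control gave -0.60 to 0.18 for Plin2. In the other 3 comparisons equal numbers had r of deviations from -0.193 to 0.359. This range overlaps the 0.103 to 0.421 of Old-OSK and Old-Control. These r do not settle which comparisons are paired, and calls lost under the block in those 3 were not read further.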
